A study of Mus musculus with 12 samples.

Results

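Fgf1, Fgf2, Fgfr1, Fgfr2, Fgfr3, Pdgfa, Cntf and Hgf encode growth factors and receptors that act on the glia of white matter. They were taken by symbol from a deposited table of 15584 genes in mouse corpus callosum, a myelinated tract between the hemispheres of the brain, and all 8 had a row and were tested. RNA was sequenced in 12 libraries, 3 in each of 4 groups: mice lacking the aryl hydrocarbon receptor (AHR, a transcription factor switched on by ligands) in microglia and given cuprizone (AHR CKO cuprizone), the same genotype without cuprizone (AHR CKO control), wild-type mice given cuprizone (WT cuprizone) and wild-type mice without it (WT control). Cuprizone is a copper chelator that kills oligodendrocytes, the myelin-forming cells. The sources used here do not give the way AHR was deleted, the dose and length of the diet, or the age and sex of the mice, and do not say whether the 3 libraries per group stem from different mice, so p-values measure a spread that may be technical.

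Fibroblast growth factors bind receptor tyrosine kinases together with heparan sulfate, and the receptors pass the signal through docking proteins to RAS and ERK, which in turn induce their own inhibitors. Platelet-derived growth factor A drives division and survival of oligodendrocyte precursors through the receptor Pdgfra. Ciliary neurotrophic factor, a cytokine made by astrocytes, binds Cntfr together with Il6st and Lifr and signals through JAK kinases and STAT3, whereas hepatocyte growth factor is cut into its active form by serine proteases and binds Met.

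Values are FPKM (fragments divided by transcript length and sequencing depth), so that levels of different genes can be set side by side. Totals ran from 447156 to 519470 per library, and the lowest values gave a rough estimate of 11400000 to 14900000 fragments, at which a 2 kb transcript at 1 FPKM rests on 22.7 to 29.9 fragments. Changes are differences of log2(FPKM + 1), which understate those of low genes, and passed at a Benjamini-Hochberg adjusted p under 0.05 in limma over the 13759 genes with at least 1 FPKM in at least 3 libraries. Of these genes 10.2% passed for cuprizone against control in AHR CKO, 16.9% in WT, 20.0% for AHR CKO against WT under cuprizone, 6.19% without cuprizone and 0.0363% for the difference between the cuprizone effects of both genotypes. Markers of mature oligodendrocytes marked the tissue in every group, with 0 of 15 listed at 0 in any library. Means below are given with their SD over 3 libraries. Summed markers of choroid plexus, a tissue beside the callosum, varied within groups, at 1107 to 3947 FPKM in AHR CKO cuprizone, 517.4 to 4025 in AHR CKO control, 103.5 to 3283 in WT cuprizone and 207.5 to 369.7 in WT control.

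Of the 8 genes, 2 passed in AHR CKO, Fgfr1 and Cntf, both higher with cuprizone, against 10.2% of all tested genes. There 4 passed without AHR CKO control replicate 3, and 3 without AHR CKO cuprizone replicate 1 or WT control replicate 3. In WT 5 passed (Fgf2, Fgfr1 and Cntf higher with cuprizone, Fgf1 and Fgfr2 lower), against 16.9% of all tested genes. Fgf2 reached 1 FPKM in 0 control and 5 cuprizone libraries. It was tested only because it was high there, so its call does not bear on that comparison of shares. The median log2 change of the 8 was 0.15 in AHR CKO and 0.37 in WT, beside -0.0142 and -0.0356 over all tested genes. Both medians include Fgf2, at 0.24 in AHR CKO and 1.17 in WT, and so carry the same limit. Each cuprizone comparison shares its groups with a genotype comparison, so values of 1 group enter both.

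**Figure D1:**
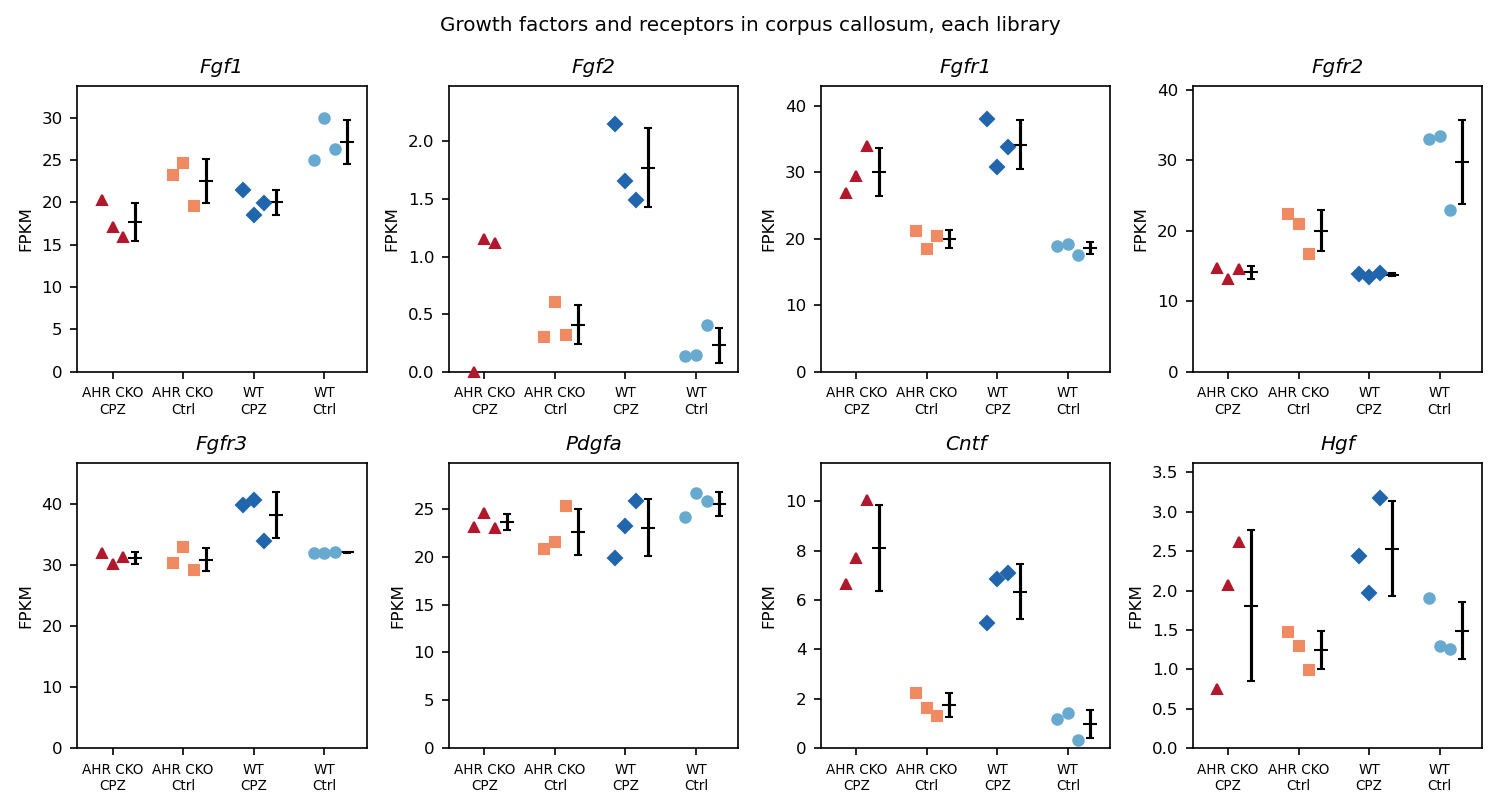
FPKM of each gene (vertical axes, linear from 0) in each library, with AHR CKO cuprizone (CPZ), AHR CKO control (Ctrl), WT cuprizone and WT control from left to right; points are libraries and bars are mean ± SD of 3, left out where a library was listed at 0. Cntf was at 5.06 to 10.03 FPKM in the cuprizone libraries and at 0.339 to 2.26 in the control libraries, and Fgfr2 was at 13.1 to 14.7 in the cuprizone libraries and 16.8 to 33.5 in the control libraries.

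Cntf had the largest log2 change of the 8 with cuprizone in both genotypes, and the 250 bases before its annotated start are shown because motifs of injury-responsive factors and of AHR itself were searched there. The window is chr19:12765633-12765882 on the minus strand (GRCm38.p6, RefSeq), is written 5′ to 3′, holds no annotated exon and has 35.6% G and C and 1 CpG. Capitals mark a match to the AP-1 motif TGANTCA, 245 bases before the start, and to GCGTG, the core of the xenobiotic response element that AHR binds, 91 bases before it.
Cntf: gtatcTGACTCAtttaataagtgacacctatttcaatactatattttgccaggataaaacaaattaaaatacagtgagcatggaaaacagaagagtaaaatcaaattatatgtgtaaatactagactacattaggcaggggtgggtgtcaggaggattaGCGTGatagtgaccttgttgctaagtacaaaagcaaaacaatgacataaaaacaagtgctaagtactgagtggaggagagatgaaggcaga
Both strands were searched, and the motifs do not overlap. Of 32851 RefSeq windows of this length, 6.75% held TGANTCA and 28.2% held GCGTG. The STAT motif TTCNNNGAA, in 7.02% of windows, had 0 matches here. A match is a stretch of letters and was not tested as a binding site.

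Cntf (ciliary neurotrophic factor, chr19:12763528-12765632, minus strand) was listed at 6.63, 7.71 and 10.03 FPKM in AHR CKO cuprizone, against 2.26, 1.65 and 1.31 in AHR CKO control. In WT it was listed at 5.06, 6.87 and 7.08 FPKM with cuprizone, against 1.19, 1.41 and 0.339 in control. Every cuprizone library lay above every control library in both genotypes. The ratio of means was 4.68 in AHR CKO (log2 change 1.73, SE 0.225, 95% interval 1.24 to 2.23, adjusted p = 0.000338) and 6.47 in WT (log2 change 1.92, SE 0.225, 1.43 to 2.41, adjusted p = 9.19e-05). Group means ran from 8.12 ± 1.74 in AHR CKO cuprizone over 6.34 ± 1.11 in WT cuprizone and 1.74 ± 0.480 in AHR CKO control to 0.979 ± 0.565 in WT control, and libraries of neighbouring groups overlapped except between WT cuprizone and AHR CKO control. The GENCODE M21 model of Zfp91, a zinc finger gene on the same strand, shares 1973 bases with Cntf, and the sources used here do not say how fragments of such loci were assigned. Zfp91 was at 31.7 ± 0.989 FPKM in AHR CKO cuprizone, 37.5 ± 1.54 in AHR CKO control, 38.2 ± 2.78 in WT cuprizone and 43.3 ± 2.0 in WT control.

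The rest of the CNTF pathway was measured through 8 genes of the wider ligand family, 6 receptors and 12 genes of the JAK-STAT3 relay. Of the 4 tested ligand genes 2 rose with cuprizone in AHR CKO and 1 in WT, and the others did not pass. Clcf1, a second ligand of Cntfr, was listed at 1.96, 3.41 and 4.52 FPKM in AHR CKO cuprizone, against 0.141, 0.423 and 1.17 in AHR CKO control (log2 change 1.45, adjusted p = 0.0041). It reached 1 FPKM in 6 cuprizone libraries and 1 control library, so it entered the test through the libraries where it was high. WT libraries had 1.9, 1.51 and 1.39 FPKM with cuprizone, against 0.98, 0.291 and 0.403 in control (log2 change 0.76, 95% interval 0.18 to 1.35, adjusted p = 0.0752), and it passed there without AHR CKO control replicate 3 (0.0468), without AHR CKO cuprizone replicate 1 (0.0496) and with only the WT libraries in the model (0.0432).

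None of the 3 chains of the CNTF receptor passed as higher with cuprizone. Cntfr, the chain that binds CNTF, was at 44.7 ± 4.64 FPKM in AHR CKO cuprizone and 47.6 ± 2.07 in AHR CKO control (log2 change -0.09, 95% interval -0.31 to 0.12), and at 42.4 ± 4.48 in WT cuprizone and 47.0 ± 2.69 in WT control (-0.15, -0.36 to 0.06). Il6st, the shared signalling chain, was at 18.4 ± 4.16 FPKM in AHR CKO cuprizone and 14.6 ± 3.27 in AHR CKO control (adjusted p = 0.26, and 0.0148 after a correction for length and GC content), and at 22.2 ± 1.81 in WT cuprizone and 19.8 ± 0.376 in WT control (adjusted p = 0.582). Lifr fell in WT, to 5.32 ± 0.586 FPKM with cuprizone against 7.01 ± 0.478 in control (log2 change -0.34, adjusted p = 0.0354). That call was lost when 1 library was left out, be it replicate 1 or 2 of WT control, 2 or 3 of WT cuprizone, 2 of AHR CKO control or 2 of AHR CKO cuprizone (adjusted p 0.0506 to 0.119). It was also lost after rescaling to a common total (0.0751), with only the WT libraries in the model (0.0825), with the replicate number as a block (0.073) and after the correction for length and GC content (0.127). In AHR CKO Lifr was at 4.16 ± 0.332 FPKM with cuprizone and 4.82 ± 0.23 in control (adjusted p = 0.328).

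Osmr, the receptor chain for oncostatin M, which pairs with the same Il6st, rose with cuprizone in both genotypes. Its levels were 5.25, 8.64 and 17.8 FPKM in AHR CKO cuprizone, against 1.62, 0.927 and 0.713 in AHR CKO control (log2 change 2.35, adjusted p = 0.000486). In WT the levels were 8.21, 4.7 and 6.57 FPKM with cuprizone, against 1.2, 1.1 and 0.998 in control (log2 change 1.81, adjusted p = 0.00177). Of the 6 receptors 1 rose and 5 did not pass in AHR CKO, while 1 rose, 1 fell and 4 did not pass in WT.

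Downstream, 5 of 12 JAK-STAT3 genes rose with cuprizone in each genotype, 0 fell and 7 did not pass, with a median log2 change of 0.20 in AHR CKO and 0.21 in WT. Of all 99 tested pathway genes 15 passed in AHR CKO and 27 in WT, against 10.2% and 16.9% of all tested genes. These counts include calls of Fgf2, Bcl3, St14 and Clcf1, which reached 1 FPKM in 0 or 1 control libraries. They entered the test through the libraries where they were high, so their calls do not bear on that comparison of shares. Stat3, the transcription factor, was at 21.2 ± 3.58 FPKM in AHR CKO cuprizone and 13.2 ± 1.06 in AHR CKO control (ratio 1.61, adjusted p = 0.00425), and at 23.3 ± 2.3 in WT cuprizone and 14.5 ± 0.102 in WT control (ratio 1.61, adjusted p = 0.00226). Socs3, the feedback inhibitor that STAT3 induces, was at 6.21 ± 1.92 FPKM in AHR CKO cuprizone and 1.61 ± 0.227 in AHR CKO control (adjusted p = 0.00023), and at 4.21 ± 0.389 in WT cuprizone and 1.57 ± 0.268 in WT control (adjusted p = 0.00137). Bcl3, a nuclear IκB protein, was at 4.38 ± 1.84 FPKM in AHR CKO cuprizone and 0.236 ± 0.0457 in AHR CKO control (adjusted p = 0.000112), and at 2.51 ± 0.465 in WT cuprizone and 0.233 ± 0.105 in WT control (adjusted p = 0.000537). Bcl3 reached 1 FPKM in all 6 cuprizone libraries and in 0 control libraries, so it entered the test only through the libraries where it was high. Its call therefore adds no support to the count of 5. None of the cuprizone calls on Stat3, Socs3, Osmr and Cntf was lost under any alternative that kept the gene in the test.

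The sum of 14 astrocyte markers was 2786 to 3451 FPKM in AHR CKO cuprizone and 1947 to 1988 in AHR CKO control, and 3111 to 3724 in WT cuprizone and 1937 to 2120 in WT control. Of these 14 genes 5 rose and 0 fell in AHR CKO, while 7 rose and 1 fell in WT, with a median log2 change of 0.27 in AHR CKO and 0.43 in WT, and none was listed at 0 in any library. Gfap, the intermediate filament of reactive astrocytes and 1 of the 14, was at 1000 ± 275 FPKM in AHR CKO cuprizone, 161 ± 8.92 in AHR CKO control, 1080 ± 169 in WT cuprizone and 185 ± 57.8 in WT control. The other 13 summed to 2064 to 2203 FPKM in AHR CKO cuprizone and 1796 to 1821 in AHR CKO control, and to 2196 to 2471 in WT cuprizone and 1808 to 1875 in WT control. Replicates 1 to 3 of WT cuprizone had sums of the 14 at 3724, 3461 and 3111 FPKM. Cntf ran in the opposite order there, at 5.06, 6.87 and 7.08. In AHR CKO cuprizone both rose from replicate 1 to 3, with sums of 2786, 3213 and 3451 FPKM. The part of astrocytes in the change of Cntf was not tested. By the root-mean-square distance of standardised log2 values over the 12 libraries, the 3 genes most like Cntf were Agpat2 (distance 0.208), the astrocyte marker Aldh1l1 (0.23) and S100a6 (0.235). Aldh1l1 was at 42.2 ± 2.92 FPKM in AHR CKO cuprizone, 27.6 ± 1.19 in AHR CKO control, 36.8 ± 2.73 in WT cuprizone and 25.3 ± 2.69 in WT control.

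Fgfr1 (chr8:25518759-25575718, plus strand), the receptor for both FGF1 and FGF2, was listed at 26.9, 29.5 and 34.0 FPKM in AHR CKO cuprizone, against 21.2, 18.5 and 20.4 in AHR CKO control. The WT values were 38.1, 30.8 and 33.8 FPKM with cuprizone, against 19.0, 19.3 and 17.6 in control. All 6 cuprizone libraries lay above all 6 control libraries. The log2 change was 0.56 in AHR CKO (SE 0.104, 95% interval 0.34 to 0.79, adjusted p = 0.00406) and 0.84 in WT (SE 0.104, 0.62 to 1.07, ratio 1.84, adjusted p = 0.000128), and both calls held under every alternative. Libraries of AHR CKO cuprizone (mean 30.1 ± 3.6) and WT cuprizone (34.2 ± 3.65) overlapped, as did those of AHR CKO control (20.0 ± 1.36) and WT control (18.6 ± 0.911).

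The genes whose levels followed Fgfr1 most closely were Il10ra (distance 0.125), Myo1f (0.128) and Spi1 (0.142). Spi1, which encodes the myeloid transcription factor PU.1, was at 23.1 ± 5.95 FPKM in AHR CKO cuprizone, 6.68 ± 1.27 in AHR CKO control, 27.0 ± 4.27 in WT cuprizone and 5.68 ± 0.793 in WT control. Summed levels of 12 microglial markers were 1042 to 1646 FPKM in AHR CKO cuprizone and 348.0 to 377.9 in AHR CKO control, and 1540 to 2233 in WT cuprizone and 378.4 to 428.3 in WT control. Of the 12, 8 rose in AHR CKO and 9 in WT, 0 fell in either, and none was listed at 0. AHR CKO cuprizone replicate 1 had the lowest microglial sum (1042) and the lowest Fgfr1 (26.9) of its group, and WT cuprizone replicate 1 had the highest of both (2233 and 38.1). In AHR CKO control, replicate 1 had the lowest microglial sum (348.0) and the highest Fgfr1 (21.2). Astrocyte sums of AHR CKO cuprizone also rose in the order of Fgfr1 (2786, 3213 and 3451 FPKM). The parts of microglia and astrocytes in the change of Fgfr1 were not tested.

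Fgfr2 (chr7:130162451-130266808, minus strand), in rodents the FGF receptor of differentiated oligodendrocytes, went the other way. It was listed at 14.7, 13.1 and 14.6 FPKM in AHR CKO cuprizone, against 22.4, 20.9 and 16.8 in AHR CKO control. In WT it was listed at 13.9, 13.5 and 14.0 FPKM with cuprizone, against 33.0, 33.5 and 22.9 in control. The cuprizone libraries of both genotypes overlapped and lay below all control libraries. In WT Fgfr2 fell (log2 change -1.04, SE 0.14, 95% interval -1.34 to -0.74, ratio 0.462, adjusted p = 0.000232), and no alternative lost the call. In AHR CKO the change was -0.46 (SE 0.14, -0.77 to -0.16, ratio 0.707, adjusted p = 0.0554). It passed there without WT control replicate 3 (0.0123), without AHR CKO control replicate 3 (0.0262), with only the AHR CKO libraries in the model (0.0478), after rescaling to a common total (0.0429) and with median-of-ratios scaling (0.0486).

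Most mature oligodendrocyte markers were lower with cuprizone in both genotypes. The sum of 15 such genes was 4689 to 5588 FPKM in AHR CKO cuprizone and 10370 to 11102 in AHR CKO control, and 3521 to 4385 in WT cuprizone and 10834 to 19640 in WT control, with 13 of 15 lower in AHR CKO and 14 of 15 in WT. In AHR CKO cuprizone, replicate 1 had the lowest marker sum (4689) and the highest Fgfr2 (14.7). WT control replicate 3 had the lowest marker sum (10834) and the lowest Fgfr2 (22.9) of its group. Its 9 striatal neuron markers summed to 2788 FPKM, against 657.4 and 1015 in WT control replicates 1 and 2, and their part in its low Fgfr2 was not tested. In whole tissue, fewer cells of a type and less RNA per cell cannot be told apart. The genes most like Fgfr2 over the 12 libraries were Trim36 (distance 0.134), Kif13a (0.177) and Sspn (0.181). Trim36 was at 2.62 ± 0.0524 FPKM in AHR CKO cuprizone, 4.2 ± 0.891 in AHR CKO control, 2.68 ± 0.261 in WT cuprizone and 7.46 ± 1.88 in WT control.

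Fgfr3 (chr5:33721724-33737068, plus strand), a receptor found on astrocytes and early glial progenitors, varied least among the receptors. In AHR CKO it was listed at 31.99, 30.1 and 31.3 FPKM with cuprizone, against 30.3, 32.8 and 29.2 in control (log2 change 0.02, 95% interval -0.16 to 0.20, adjusted p = 0.929). WT libraries had 39.8, 40.6 and 33.8 FPKM with cuprizone, against 31.95, 31.99 and 32.14 in control. The 3 WT cuprizone libraries lay above the 3 WT control libraries, but the change did not pass (log2 change 0.24, 0.06 to 0.42, adjusted p = 0.0716). It passed after quantile normalization (0.0276) and without WT cuprizone replicate 3 (0.0262).

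With Fgfr1 higher and Fgfr2 lower, the ratio of their FPKM turned over with cuprizone in WT. It was 1.83, 2.25 and 2.33 in AHR CKO cuprizone, against 0.945, 0.885 and 1.22 in AHR CKO control. In WT it was 2.75, 2.29 and 2.42 with cuprizone, against 0.575, 0.576 and 0.766 in control. Fgfr1 was thus above Fgfr2 in all 6 cuprizone libraries and below it in all 3 WT control libraries, with AHR CKO control on both sides of equality. The 3 receptors summed to 72.8 to 79.9 FPKM in AHR CKO cuprizone, 66.4 to 73.9 in AHR CKO control, 81.6 to 91.7 in WT cuprizone and 72.6 to 84.7 in WT control. Fgfr2 made up 18.0% to 20.0% of that sum in AHR CKO cuprizone and 25.3% to 30.3% in AHR CKO control, against 15.1% to 17.1% in WT cuprizone and 31.6% to 39.5% in WT control. These ratios and shares are descriptions with no test of their own.

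**Figure D2:**
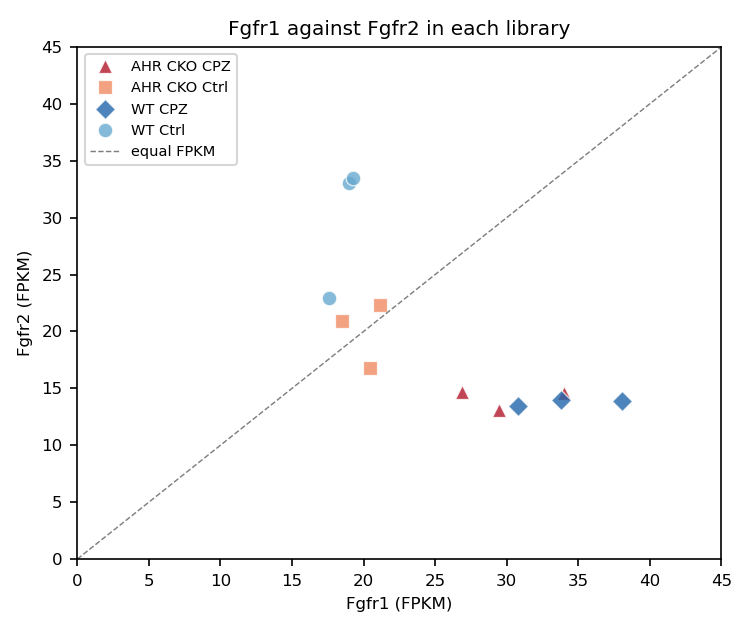
FPKM of Fgfr1 (horizontal) and Fgfr2 (vertical), 1 point per library; the dashed line marks equal levels and symbols mark AHR CKO cuprizone (CPZ), AHR CKO control (Ctrl), WT cuprizone and WT control. The 6 cuprizone libraries lie below the line with Fgfr1 at 26.9 to 38.1, and the 3 WT control libraries lie above it with Fgfr2 at 22.9 to 33.5.

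Fgf2 (chr3:37348477-37410106, plus strand), basic FGF, a ligand of all 3 receptors, was the rarest of the 8 genes without cuprizone. Its levels were 0, 1.15 and 1.12 FPKM in AHR CKO cuprizone, against 0.303, 0.609 and 0.320 in AHR CKO control. In WT the levels were 2.15, 1.66 and 1.49 FPKM with cuprizone, against 0.135, 0.144 and 0.407 in control. The 3 WT cuprizone libraries lay above all other libraries, and AHR CKO cuprizone was split, with replicate 1 at 0 and the other replicates above both control groups. Each AHR CKO library listed 52 to 80 genes at 0, WT cuprizone replicate 2 listed 94, and the other WT libraries listed 0 such genes. The reason was not tested, and the Fgf2 value of 0 enters the AHR CKO cuprizone mean. In WT Fgf2 rose 7.72-fold by the ratio of means (log2 change 1.17, SE 0.258, 95% interval 0.61 to 1.73, adjusted p = 0.00754), the largest ratio of the 8, and no alternative that tested the gene lost the call (highest adjusted p 0.0438). In AHR CKO the log2 change was 0.24 (-0.32 to 0.80, adjusted p = 0.617). Fgf2 reached 1 FPKM in 5 libraries, all of them cuprizone libraries, so it was tested only because it was high there. Nudt6, a gene on the opposite strand, shares 5125 bases with Fgf2 in RefSeq, and since it is not given whether counting used strand, reads of the pair cannot be told apart. Nudt6 was at 3.82 ± 0.658 FPKM in AHR CKO cuprizone, 3.28 ± 0.476 in AHR CKO control, 2.98 ± 0.071 in WT cuprizone and 2.3 ± 0.719 in WT control. The genes most like Fgf2 were Rasgrf2 (distance 0.32), Acp6 (0.358) and Ptpn1 (0.363).

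Fgf1 (chr18:38838672-38929470, minus strand), acidic FGF, which binds every FGF receptor and like FGF2 lacks a signal peptide, was the more abundant ligand. It was listed at 20.2, 17.1 and 15.9 FPKM in AHR CKO cuprizone, against 23.2, 24.7 and 19.6 in AHR CKO control. The WT values were 21.5, 18.5 and 19.9 FPKM with cuprizone, against 25.0, 29.9 and 26.3 in control. The WT groups did not overlap, whereas the AHR CKO groups did. Fgf1 fell in WT (log2 change -0.42, SE 0.115, 95% interval -0.67 to -0.17, ratio 0.737, adjusted p = 0.0244). The call was lost without WT control replicate 2 (0.0998), without WT cuprizone replicate 2 (0.0731) or 3 (0.0673), and after quantile normalization (0.052). In AHR CKO the change was -0.33 (-0.58 to -0.08, adjusted p = 0.0966), and passed without AHR CKO control replicate 3 (0.0454) or AHR CKO cuprizone replicate 1 (0.0466). Group means increased in the order AHR CKO cuprizone (17.7 ± 2.24), WT cuprizone (20.0 ± 1.5), AHR CKO control (22.5 ± 2.63) and WT control (27.1 ± 2.55), and libraries of neighbouring groups overlapped except for the control groups. The most like genes were B3galt5 (0.332), Dnm3 (0.367) and Gdpd1 (0.375).

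The other genes of the FGF system changed in part. Of 8 tested secreted ligands, Fgf1 and Fgf2 included, 0 passed in AHR CKO (1 at an unadjusted p under 0.05 in limma). In WT 1 rose (Fgf2, tested only through its cuprizone libraries) and 1 fell (Fgf1). Of the 4 homologous factors that stay inside the cell, 0 passed in AHR CKO at an adjusted or an unadjusted p under 0.05, and Fgf12 fell in WT, to 30.4 ± 2.89 FPKM with cuprizone against 41.3 ± 3.57 in control (adjusted p = 0.0177, and 0.0578 to 0.076 without replicate 1 or 3 of either WT group). Fgfrl1, a receptor that binds FGFs without a kinase domain, rose in both genotypes, to 13.7 ± 2.3 FPKM in AHR CKO cuprizone against 9.03 ± 0.691 in AHR CKO control (adjusted p = 0.00779), and to 12.5 ± 0.83 in WT cuprizone against 7.7 ± 0.155 in WT control (adjusted p = 0.00173). Of the 9 receptors and co-receptors tested, Fgfr1, Fgfr2 and Fgfr3 included, 2 rose, 0 fell and 7 did not pass in AHR CKO, while 2 rose, 1 fell and 6 did not pass in WT.

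Among 11 heparan sulfate proteoglycans, the cell-surface partners of FGF binding, 1 rose in AHR CKO and 3 rose in WT. Sdc4 (syndecan 4) was at 63.2 ± 8.39 FPKM in AHR CKO cuprizone and 36.0 ± 2.67 in AHR CKO control (adjusted p = 0.00136), and at 72.8 ± 10.6 in WT cuprizone and 40.9 ± 4.24 in WT control (adjusted p = 0.000666). Gpc4 (glypican 4) rose in WT, to 9.73 ± 3.39 FPKM with cuprizone against 4.33 ± 0.401 in control (adjusted p = 0.00645). Sdc3 rose in WT by 0.30 on the log2 scale (adjusted p = 0.0259), which was lost without any 1 of the 3 WT control libraries or WT cuprizone replicate 1 or 3 (0.0539 to 0.109). It was also lost after rescaling to a common total (0.0599), with only the WT libraries in the model (0.058) and with the replicate number as a block (0.0575).

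Inside the cell, 19 adaptors and relay genes between receptor and ERK were tested. In AHR CKO 0 passed (7 at an unadjusted p under 0.05 in limma), and in WT 1 rose and 3 fell. Shc1, an adaptor of receptor tyrosine kinases, rose in WT to 7.21 ± 1.53 FPKM with cuprizone against 3.98 ± 0.478 in control (adjusted p = 0.00317). Gab1, a docking protein, fell to 17.3 ± 2.75 FPKM against 30.2 ± 6.52 (adjusted p = 0.00557). Ptpn11 (SHP2), the phosphatase that carries the signal to RAS, fell to 57.2 ± 3.84 FPKM against 76.3 ± 6.75 (adjusted p = 0.00836). Sos2, a RAS exchange factor, fell by 0.29 on the log2 scale (adjusted p = 0.0436), a call lost without any single WT library (0.0631 to 0.134), without any AHR CKO control library (0.0513 to 0.0637) and without AHR CKO cuprizone replicate 2 (0.0628). Most other alternatives lost it too (0.0556 to 0.106). In AHR CKO Ptpn11 was at 45.3 ± 1.09 FPKM with cuprizone and 56.5 ± 5.14 in control, with no overlap. It did not pass there, but passed under some alternatives (0.0243 without AHR CKO control replicate 3).

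Of 12 feedback and target genes of ERK, 0 rose and 1 fell with cuprizone in AHR CKO, while 3 rose and 1 fell in WT. Dusp6, a phosphatase that switches off ERK, was listed at 19.1, 26.5 and 29.8 FPKM in AHR CKO cuprizone, against 27.4, 25.8 and 27.9 in AHR CKO control (log2 change -0.12, 95% interval -0.43 to 0.18, adjusted p = 0.632). In WT it was listed at 31.5, 30.6 and 33.8 FPKM with cuprizone, against 20.4, 16.4 and 16.3 in control (log2 change 0.83, adjusted p = 0.00126). The difference between the genotypes in this change did not pass (-0.95, 95% interval -1.38 to -0.52, unadjusted p = 0.000416, adjusted p = 0.162 in limma). Etv1, an ETS transcription factor that FGF signalling induces, fell by 0.81 on the log2 scale in WT (ratio 0.558, adjusted p = 0.000839). In AHR CKO its change was -0.39 (95% interval -0.67 to -0.11, adjusted p = 0.0826), with every cuprizone library below every control library. It passed there without AHR CKO control replicate 3 (0.0445).

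Dusp4 and Dusp5, related phosphatases, rose in WT by 0.74 (adjusted p = 0.0314) and 0.62 (adjusted p = 0.0158) on the log2 scale. Both calls were lost without WT control replicate 1 or 2 and without WT cuprizone replicate 3, and that of Dusp4 also without WT cuprizone replicate 1 (0.0571 to 0.124). With only the WT libraries in the model both were lost too (0.0763 for Dusp4, 0.0565 for Dusp5). The correction for length and GC content also lost Dusp4 (0.0595). Spred2, an inhibitor of RAS to RAF signalling, fell in AHR CKO to 16.1 ± 2.53 FPKM with cuprizone against 23.2 ± 2.99 in control (adjusted p = 0.0336), a call lost with replicate 1 or 2 of the control or 1 or 3 of the cuprizone libraries left out (0.0608 to 0.135). It was also lost with only the AHR CKO libraries in the model (0.0613) and with the replicate number as a block (0.0575).

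Pdgfa (chr5:138976014-139000792, minus strand) was the steadiest ligand. Its levels were 23.1, 24.6 and 23.0 FPKM in AHR CKO cuprizone, against 20.8, 21.6 and 25.3 in AHR CKO control. WT libraries had 19.9, 23.2 and 25.8 FPKM with cuprizone, against 24.1, 26.6 and 25.8 in control. All 4 groups overlapped. The log2 change was 0.06 in AHR CKO (95% interval -0.16 to 0.29, adjusted p = 0.751) and -0.15 in WT (-0.38 to 0.07, adjusted p = 0.36). Its receptor Pdgfra, the classic marker of oligodendrocyte precursors, was listed at 9.11, 9.34 and 10.2 FPKM in AHR CKO cuprizone, against 11.7, 11.6 and 9.23 in AHR CKO control (log2 change -0.16, -0.42 to 0.09, adjusted p = 0.446). In WT the levels were 11.4, 9.7 and 10.2 FPKM with cuprizone, against 13.9, 14.0 and 11.1 in control (-0.29, -0.54 to -0.03, adjusted p = 0.121, and 0.0462 without WT control replicate 3). Summed levels of 12 precursor markers, Pdgfra among them, were 476.1 to 486.6 FPKM in AHR CKO cuprizone, 499.8 to 522.0 in AHR CKO control, 418.0 to 457.5 in WT cuprizone and 434.6 to 585.8 in WT control. Of the 7 PDGF genes 1 rose in AHR CKO, Pdgfrl, a receptor-like protein (2.82 ± 0.788 FPKM with cuprizone against 1.22 ± 0.464 in control, adjusted p = 0.0164, and 0.052 or 0.0668 without replicate 3 of AHR CKO control or AHR CKO cuprizone). In WT 0 of the 7 passed (3 at an unadjusted p under 0.05 in limma). The nearest genes to Pdgfa, Nup85 (distance 0.64) and Tssc1 (0.649), were farther off than those of any other of the 8.

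Hgf (chr5:16553495-16619439, plus strand), hepatocyte growth factor, was low. It was listed at 0.754, 2.07 and 2.62 FPKM in AHR CKO cuprizone, against 1.47, 1.29 and 0.997 in AHR CKO control (log2 change 0.26, 95% interval -0.26 to 0.78, adjusted p = 0.552). The WT values were 2.44, 1.97 and 3.17 FPKM with cuprizone, against 1.91, 1.29 and 1.26 in control (log2 change 0.50, -0.02 to 1.02, adjusted p = 0.184). The WT cuprizone libraries lay above the WT control libraries, while AHR CKO cuprizone spanned the lowest value of all 12 libraries (replicate 1) and the second highest. Met, its receptor, was at 1.64 ± 0.5 FPKM in AHR CKO cuprizone and 0.936 ± 0.296 in AHR CKO control (adjusted p = 0.113, and 0.0349 without AHR CKO cuprizone replicate 1), and at 1.33 ± 0.143 in WT cuprizone and 1.11 ± 0.0827 in WT control (adjusted p = 0.624). The most like genes were S1pr1 (0.323), Vhl (0.33) and Rap1b (0.367).

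Plau and St14, which encode proteases known to cut pro-HGF, rose with cuprizone in both genotypes. Plau (urokinase) was listed at 10.2, 14.0 and 18.7 FPKM in AHR CKO cuprizone, against 1.77, 1.75 and 1.91 in AHR CKO control (log2 change 2.41, adjusted p = 2.63e-05). In WT it was listed at 12.5, 10.9 and 9.69 FPKM with cuprizone, against 2.32, 2.24 and 1.03 in control (log2 change 2.10, adjusted p = 3.36e-05). St14 (matriptase) was at 2.19 ± 0.482 FPKM in AHR CKO cuprizone and 0.219 ± 0.0911 in AHR CKO control (adjusted p = 0.000112), and at 2.12 ± 0.417 in WT cuprizone and 0.201 ± 0.0542 in WT control (adjusted p = 6.12e-05). It reached 1 FPKM in all 6 cuprizone libraries and in 0 control libraries, and so entered the test only through the cuprizone libraries. The other 5 genes of the 7 tested, Hgf and Met included, did not pass in either genotype. Among them Plat, another plasminogen activator, had a log2 change of 0.06 in AHR CKO (adjusted p = 0.85) and -0.13 in WT (adjusted p = 0.641).

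**Figure D3:**
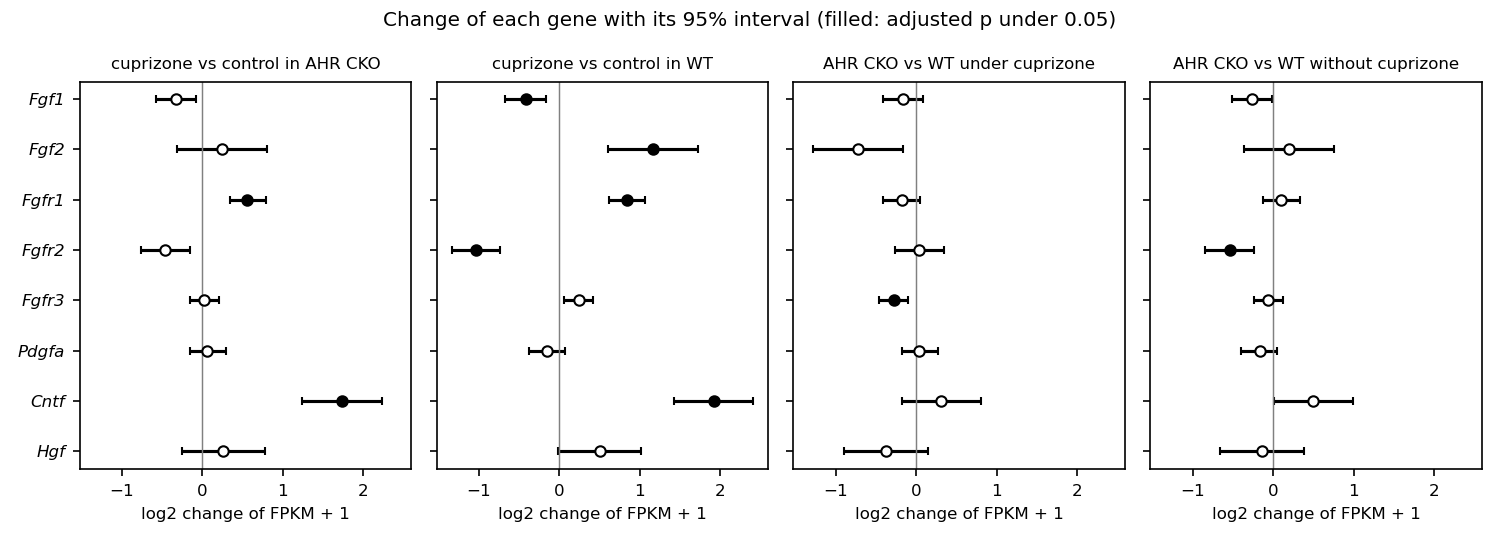
Log2 change of FPKM + 1 (horizontal) with its 95% interval for each of the 8 genes in the 4 comparisons, AHR CKO over WT or cuprizone over control; filled points passed at an adjusted p under 0.05. Cntf had the largest log2 change in both cuprizone panels, 1.73 in AHR CKO and 1.92 in WT, and the filled points of the genotype panels are Fgfr3 at -0.28 and Fgfr2 at -0.54.

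Between genotypes under cuprizone, 1 of the 8 genes passed, against 20.0% of all tested genes, and their median log2 change was -0.17, beside 0.00172 over all tested genes. Fgfr3 was lower in AHR CKO, at 31.1 ± 0.932 FPKM against 38.1 ± 3.71 in WT (log2 change -0.28, SE 0.083, 95% interval -0.46 to -0.10, ratio 0.818, adjusted p = 0.0361). The call was lost without WT control replicate 1 (0.0519), without WT cuprizone replicate 1 (0.112) or 2 (0.0932), and without AHR CKO cuprizone replicate 1 (0.079), 2 (0.101) or 3 (0.0541). With only the groups compared in the model (0.101) and with the replicate number as a block (0.0597) it was lost too. Fgf2 had the largest difference among the 8, with every AHR CKO library below every WT library (-0.73, -1.29 to -0.17, adjusted p = 0.0643). That value includes AHR CKO cuprizone replicate 1, listed at 0. Over the alternatives that tested Fgf2 the difference ran from -1.79 to -0.37, with a highest adjusted p of 0.254. It passed only without AHR CKO cuprizone replicate 3 (0.0369). The changes of Cntf (0.31, -0.18 to 0.80), Fgfr1 (-0.18, -0.41 to 0.05), Fgfr2 (0.03, -0.27 to 0.34), Hgf (-0.38, -0.90 to 0.14) and Pdgfa (0.04, -0.18 to 0.27) had intervals across 0. Of 14 astrocyte markers 1 was higher and 2 were lower in AHR CKO here, and of 12 microglial markers 0 were higher and 3 lower. Their part in the difference of Fgfr3 was not tested. Mature oligodendrocyte markers had 3 of 15 higher and 0 lower in AHR CKO, with a median log2 change of 0.42, while Fgfr2 overlapped between the genotypes.

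Of the 99 tested pathway genes 22 passed in this comparison, and that share is near the 20.0% of all tested genes. Of the 12 ERK feedback and target genes 0 were higher and 5 lower in AHR CKO, with a median log2 change of -0.38. Spred2 was at 16.1 ± 2.53 FPKM in AHR CKO and 28.3 ± 2.55 in WT (adjusted p = 0.00605), and no alternative lost the call. Its relatives Spred1 (31.1 ± 4.58 against 44.3 ± 3.22 FPKM in WT, adjusted p = 0.0161) and Spred3 (9.16 ± 0.696 against 12.4 ± 1.36 in WT, adjusted p = 0.0244) were lower too, as was Dusp4 (2.92 ± 0.761 against 5.69 ± 1.73 in WT, adjusted p = 0.0286). Of the 19 adaptors and relay genes 3 were higher and 5 lower. Frs2, the docking protein of FGF receptors, was at 10.6 ± 0.791 FPKM in AHR CKO and 15.6 ± 1.11 in WT (adjusted p = 0.00993), while its relative Frs3 was at 16.9 ± 3.31 in AHR CKO and 10.3 ± 1.86 in WT (adjusted p = 0.0205). Hras was higher (65.1 ± 8.4 against 43.4 ± 8.46 FPKM in WT, adjusted p = 0.0259) and Ptpn11 lower (45.3 ± 1.09 against 57.2 ± 3.84 in WT, adjusted p = 0.0277).

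Among ligands and receptors Fgf10 was lower in AHR CKO under cuprizone (1.4 ± 0.158 against 2.42 ± 0.109 FPKM in WT, adjusted p = 0.0154). The FGF-binding protein Fgfbp3 was higher (7.24 ± 0.628 against 3.08 ± 0.367 FPKM in WT, adjusted p = 0.0165), and Flrt2 and Flrt1, membrane proteins that bind FGF receptors, were lower (log2 changes -0.48 and -0.56, adjusted p = 0.0162 and 0.0296). Jak2 and Jak1 were lower (-0.39 and -0.34, adjusted p = 0.0192 and 0.0356), as was the IL-6 receptor Il6ra (-0.74, adjusted p = 0.0496). Spint2, an inhibitor of HGF-activating proteases, was higher (42.0 ± 16.6 against 20.6 ± 6.37 FPKM in WT, adjusted p = 0.0268). Its libraries were at 61.0, 30.1 and 34.9 FPKM in AHR CKO cuprizone, against 27.3, 14.6 and 20.0 in WT cuprizone. Choroid plexus markers summed to 3947, 1107 and 3047 FPKM in the same AHR CKO libraries, against 3283, 103.5 and 1114 in the WT ones, in the same order within each group as Spint2, and their part in its difference was not tested. None of the 11 tested proteoglycans and none of the 7 PDGF genes passed in limma (0 and 2 at an unadjusted p under 0.05).

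Most of these calls were lost when single libraries were left out or when a correction for transcript length and GC content, chosen after seeing the data, was applied. The log2 changes of the named genes kept their sign under all alternatives that kept the gene in the test, running from -0.98 to -0.60 for Dusp4, from 0.42 to 0.69 for Hras and from 0.80 to 1.21 for Fgfbp3. Without AHR CKO cuprizone replicate 1 the calls of Dusp4, Spred1, Spred3, Frs3, Hras, Ptpn11, Fgfbp3, Flrt1, Flrt2, Jak1, Jak2, Il6ra and Spint2 were lost (adjusted p 0.0563 to 0.197). Without WT cuprizone replicate 3 those of Dusp4, Spred1, Spred3, Ptpn11, Fgf10, Flrt1, Jak1, Jak2, Il6ra and Spint2 were lost (0.0507 to 0.118). Leaving out WT cuprizone replicate 1 lost Dusp4, Frs3, Hras, Ptpn11, Fgfbp3, Jak1 and Il6ra (0.0559 to 0.165), and WT cuprizone replicate 2 lost Spred3, Ptpn11, Flrt1 and Spint2 (0.0662 to 0.0817). Leaving out AHR CKO cuprizone replicate 2 lost Spred3, Frs3, Hras, Ptpn11, Fgf10, Fgfbp3, Jak1 and Il6ra (0.0508 to 0.0767), and replicate 3 lost Dusp4, Ptpn11 and Il6ra (0.0509 to 0.0528). Jak1 also missed without WT control replicate 1 (0.0502) or AHR CKO control replicate 2 (0.0519), and Il6ra without any WT control library or AHR CKO control replicate 1 or 2 (0.0504 to 0.0661). The correction kept Spred2, Spred3 and Dusp4 and lost the others (0.0535 to 0.694). Over all genes in this comparison, the median log2 change was 0.219 among the shortest of 3 equal groups of transcripts and -0.209 among the longest.

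Without cuprizone 1 of the 8 genes passed, against 6.19% of all tested genes, and the median log2 change was -0.10, beside -0.0288 over all tested genes. Fgfr2 was lower in AHR CKO, at 20.0 ± 2.92 FPKM against 29.8 ± 5.95 in WT (log2 change -0.54, SE 0.14, 95% interval -0.85 to -0.24, ratio 0.672, adjusted p = 0.046). This call did not hold under 14 of 22 alternatives, among them leaving out replicate 1 or 2 of WT control, any WT cuprizone library, replicate 2 or 3 of AHR CKO control or replicate 2 of AHR CKO cuprizone (highest adjusted p 0.173), and the correction for length and GC content (0.105). Of the oligodendrocyte markers, 2 of 15 were lower in AHR CKO here and 0 were higher, with a median log2 change of -0.48 and 10 of 15 at an unadjusted p under 0.05. Striatal neuron markers summed to 1308 to 2078 FPKM in AHR CKO control, against 657.4, 1015 and 2788 in replicates 1 to 3 of WT control. Fibroblast markers summed to 75.4 to 146.5 FPKM in AHR CKO control and 31.78 to 32.56 in WT control. The part of any of these markers in the difference of Fgfr2 was not tested. Each AHR CKO library lay below each WT library in Fgf1 (-0.26, -0.51 to -0.01, adjusted p = 0.167). Cntf (0.50, 0.01 to 0.99, adjusted p = 0.176), Fgf2 (0.20, adjusted p = 0.653), Fgfr1 (0.10, adjusted p = 0.561), Fgfr3 (-0.06, adjusted p = 0.693), Pdgfa (-0.17, adjusted p = 0.292) and Hgf (-0.14, adjusted p = 0.746) did not pass.

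Further along the pathway, Dusp5 was higher in AHR CKO without cuprizone (9.07 ± 1.49 against 3.44 ± 0.677 FPKM in WT, adjusted p = 0.012), as were Dusp6 (27.1 ± 1.09 against 17.7 ± 2.35 in WT, adjusted p = 0.0373) and Spint2 (35.0 ± 7.47 against 15.8 ± 2.87 in WT, adjusted p = 0.0395). Choroid plexus markers summed to 517.4 to 4025 FPKM in AHR CKO control and 207.5 to 369.7 in WT control, and their part in the difference of Spint2 was not tested. Etv1 was lower (18.5 ± 2.58 against 26.8 ± 2.47 FPKM in WT, adjusted p = 0.0421). Of the 19 adaptors and relay genes 0 were higher and 4 lower, among them Frs2, Ptpn11 and Gab1 (log2 changes -0.57, -0.43 and -0.67, adjusted p = 0.0265, 0.0329 and 0.0373). Lifr and Jak2 were lower as well (-0.46 and -0.44, adjusted p = 0.0341 and 0.0348). Each of these 9 calls was lost when replicate 1 or 2 of WT control or replicate 3 of AHR CKO control was left out (0.0501 to 0.164), and each but Dusp5 after the correction for length and GC content (0.0958 to 0.467). All but Dusp5 were lost without AHR CKO control replicate 2 (0.0828 to 0.122), and all but Dusp5 and Frs2 without WT cuprizone replicate 3 or AHR CKO cuprizone replicate 2 (0.0518 to 0.06). Dusp6, Etv1 and Spint2 were also lost without AHR CKO control replicate 1 (0.0573 to 0.0651), and Dusp6 without WT control replicate 3 (0.0631).

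**Figure D4:**
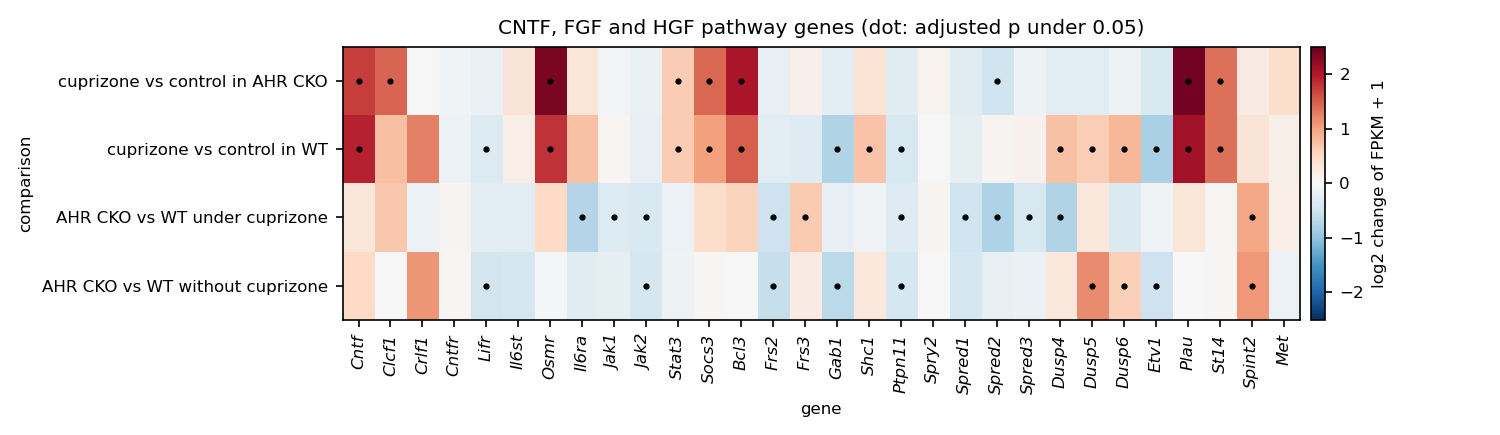
Log2 change of FPKM + 1 (colour) of named genes of the CNTF, FGF-ERK and HGF pathways (columns) in the 4 comparisons (rows); a dot marks an adjusted p under 0.05. Cntf, Osmr, Stat3, Socs3, Bcl3, Plau and St14 passed in both cuprizone rows, and Dusp6 did not pass in the AHR CKO cuprizone row (-0.12) and passed in the WT one (0.83).

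The cuprizone effect was then compared between genotypes. In limma 0 of the 8 genes passed, against 0.0363% of all tested genes, and 2 had an unadjusted p under 0.05. These were Fgfr2, which had the smaller fall in AHR CKO (difference 0.58, 95% interval 0.15 to 1.01, adjusted p = 0.366), and Fgf2, which had the smaller rise in AHR CKO (-0.93, -1.73 to -0.13, adjusted p = 0.438). The Fgf2 difference includes the library listed at 0 and ran from -2.47 to -0.57 over the alternatives that tested it. For Cntf the difference was -0.19 (-0.88 to 0.51, adjusted p = 0.904), for Fgfr1 -0.28 (-0.60 to 0.04, adjusted p = 0.581) and for Pdgfa 0.22 (-0.10 to 0.53, adjusted p = 0.708). Calls of Fgf1, Fgf2 and Fgfr2 that passed in WT and not in AHR CKO are therefore not shown to differ between genotypes. Of the 99 tested pathway genes 0 passed as well, with 10 at an unadjusted p under 0.05.

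AHR CKO cuprizone replicate 1 was at an end of its group in most of the 8 genes, in both directions. With 3 libraries a group, every library but the middle one is at an end for a gene. Replicate 3 was likewise at an end in Fgf1 (15.9), Fgfr1 (34.0), Pdgfa (23.0), Cntf (10.03) and Hgf (2.62). Replicate 1 had the lowest Fgf2 (listed at 0), Hgf (0.754), Cntf (6.63) and Fgfr1 (26.9) of its group. Summed astrocyte (2786), microglial (1042) and oligodendrocyte markers (4689) were lowest there too. The same library had the highest Fgf1 (20.2), Fgfr2 (14.7), Fgfr3 (31.99) and choroid plexus sum (3947) of its group, and the highest FPKM total of all 12 (519470). Without it 3 of the 8 genes passed for cuprizone in AHR CKO, in place of 2. An exact permutation test of 3 against 3 libraries cannot go below p = 0.1, so no such test was used for single genes.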

How the data were processed

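Per the labels' protocols, RNA of mouse corpus callosum was extracted with the RNeasy kit and sequencing libraries came from the SMARTER mRNA-Seq kit. The authors deposited 1 table of FPKM values for 15584 genes in 12 libraries, per the file headers. The submitters' processing notes name the build GRCm38 (mm10). The sources used here do not give the aligner, counter, annotation, strand setting or filters. FPKM depends on a few abundant genes and hides depth, which was estimated from the smallest steps of FPKM times length (9 to 31 genes per library, in a range chosen after looking at the values). An exact 0 is given only as listed.

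From the deposited values, genes with at least 1 FPKM in at least 3 libraries (13759, 88.3%) were fitted as log2(FPKM + 1) with limma 3.58.1 in R 4.3.3, with 4 group means over all 12 libraries and a trended prior. Two-sided p-values were adjusted by Benjamini-Hochberg within each of 5 comparisons (threshold 0.05). The procedure was tested on simulated data. Ratios are of mean FPKM.

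The 8 genes, the 11 pathway lists (117 genes, 107 in the table, 99 tested) and the 11 marker lists (124 genes, 121 in the table) were chosen with earlier results of these data known. Named were the 8 genes, Pdgfra, Cntfr, Il6st, Lifr and Met, per pathway list and comparison up to 4 genes of smallest adjusted p past the threshold (or up to 2 of highest level where none passed, of which not all are given), up to 3 genes per marker list, and the 3 genes most like each of the 8. A few genes that the rule names are not reported here. As alternatives, the fit was repeated with a pseudocount of 0.1, with no filter or a mean of at least 5 FPKM, and with 3 other scalings, no trend, only the groups compared, the replicate number as a block, each library left out and, chosen after seeing the data, a length and GC correction (splines of 5 degrees of freedom, 13123 genes with a GENCODE M21 length). Gene positions and the promoter came from RefSeq on GRCm38.p6, whose promoter table matched 6 of the 8 genes.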

Additional observations from a re-analysis of the deposited data

How the results depend on the processing

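Of the results of the 8 genes under 22 alternatives, 821 kept their side of the threshold and no called value changed sign, 26 lost the call and 10 gained one. A sign change occurred in 12 of 857, all in changes that passed in neither setting. For cuprizone in AHR CKO, where 2 passed, 2 to 4 passed with 1 library left out, 1 at a mean of at least 5 FPKM, which leaves fewer of the 8 in the test, and 3 after rescaling to a common total, with median-of-ratios scaling and with only the groups compared. For cuprizone in WT, where 5 passed, 4 to 5 passed with 1 library left out, and 3 at a mean of at least 5 FPKM. For AHR CKO against WT under cuprizone, where 1 passed, 0 to 1 passed with 1 library left out, and 0 with only the groups compared. Without cuprizone, where 1 passed, 0 to 1 passed with 1 library left out, and 0 with no filter, quantile normalization, no trend, only the groups compared or the length and GC correction; apart from the samples and genes entering each fit, the cause was not tested. For the difference of the cuprizone effects 0 passed throughout.

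Same-numbered libraries mostly did not deviate together over all genes (correlation -0.343 to 0.25, over 0.1 in 3 of 18 pairs). Such deviations from means of 3 libraries cannot exclude a pairing of samples, and the sample titles give only a number. With the replicate block 2, 5, 0, 0 and 0 of the 8 genes passed in these comparisons, in the order just given. Of all genes 1047, 1945, 1806, 51 and 0 passed, in place of 1403, 2324, 2747, 851 and 5. With 1 library left out these counts over all genes were 840 to 1553, 1594 to 2439, 777 to 3305, 4 to 1428 and 0 to 103. With the length and GC correction 947 passed between genotypes under cuprizone and 52 without it. Rescaling to a common total moved the median change of all genes between genotypes under cuprizone to -0.119, with 627 higher and 2328 lower in place of 1257 and 1490, and for cuprizone in AHR CKO gave 771 higher and 536 lower in place of 993 and 410. Values of Fgf2 and Hgf, near or under 1 FPKM in many libraries, rest on few fragments.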
